A study of Homo sapiens with 4 samples.

Results

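Described here is the baseline transcriptome of H9 human embryonic stem cells that carried control non-targeting guides. H9 is a widely used human line in the primed state, an established cell line grown in mTeSR1 medium on Geltrex. The 2 control libraries were chosen by the genotype in their labels, out of 4 libraries in the series. The other libraries carried guides against the long non-coding RNA gene SNHG26 and are not analysed here, so no comparison between guides is made. Both control libraries came from cells transfected with a transposon vector for doxycycline-inducible dCas9-KRAB, in which a Cas9 that cannot cut carries a transcriptional repressor, along with the control guides. The cells were selected with puromycin for 6 days and then given 1 µg/mL doxycycline, for 2 days in the library called day 2 here and for 3 days in the library called day 3. The labels do not describe these cells as clones or name an uninduced sample, and every value therefore belongs to cells with an induced dCas9 repressor. Poly(A) RNA was primed with oligo-dT, made into cDNA by strand switching, amplified for 14 cycles and read on a nanopore sequencer. The libraries differ in day, so every mean ± SD (n = 2) includes any effect of the day, and no test was run.

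Embryonic stem cells keep the ability to form all tissues of the body through a small set of transcription factors, with POU5F1 (OCT4) and SOX2 at the centre, which bind one another's genes and their own. Human lines in standard medium are in the primed state, which resembles the epiblast shortly before gastrulation and depends on FGF and activin or Nodal signals. Such cells divide fast, rely on glycolysis, express the DNA methyltransferase DNMT3B, and make the microRNAs of the miR-302 cluster. Primed cells hold lineage genes silent or nearly so until they differentiate.

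The deposited values are TPM, which express reads per unit of length on a scale shared by all genes of a library. The length in the table equals the whole interval between the listed start and end, introns included, for each gene. A TPM here is therefore a level per genomic span, and a short or intronless gene stands higher than a long gene with equal reads. TPM multiplied by the listed length undoes that division and is proportional to reads where a gene has 1 transcript. For a gene with several transcripts it is an upper bound. Another measure, reads on the median span of a gene's annotated transcripts, is an estimate. By that estimate the libraries held 382987 reads on day 2 and 455368 on day 3, and at most 947338 and 1135940. For a gene of 10 kb, 1 read gave 0.803 TPM on day 2 and 0.672 TPM on day 3. Reads were amplified without molecular identifiers in the described protocol, so counting intervals below cover counting error only.

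The highest long non-coding RNA gene by TPM and by TPM multiplied by length, in both libraries, was MIR302CHG, the host transcript of the miR-302 and miR-367 microRNAs. It lies at chr4:112646476-112706894 on the minus strand (GRCh38, as the table lists it). The table's span holds 5 microRNA hairpins with 10 mature sequences in RefSeq (GRCh38.p14), between 112647877 and 112648547. The 3p arms are printed 5′ to 3′ because they are the part of this transcript by which stem cells are known. Capitals mark the seed, bases 2 to 8, which pairs with target messages.
miR-302a-3p: uAAGUGCUuccauguuuugguga
miR-302b-3p: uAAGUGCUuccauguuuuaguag
miR-302c-3p: uAAGUGCUuccauguuucagugg
miR-302d-3p: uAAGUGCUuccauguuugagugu
miR-367-3p: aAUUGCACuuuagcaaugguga
The 4 miR-302 sequences share the seed AAGUGCU, whereas miR-367-3p has the seed AUUGCAC. The microRNAs themselves were not measured in these libraries, which read long cDNA.

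MIR302CHG was listed at 5788 TPM on day 2 and 6134 TPM on day 3, a mean of 5961 ± 245 (SD, n = 2), and ranked 26 of 16174 genes by TPM. By TPM multiplied by length it ranked first. It took 26.4% and 25.9% of all TPM on long non-coding RNA genes in the day 2 and day 3 libraries, 43.8% and 41.7% of their TPM multiplied by length, and 14.3% and 11.1% of their reads by the transcript-span estimate. By the transcript-span estimate, which for this gene uses a much shorter RefSeq span, it held 2401 and 3043 reads and ranked 14 of all genes. On that measure LINC02700, an intergenic non-coding RNA, held 1682 and 5657 reads and was above it on day 3. The listed span of MIR302CHG overlaps LARP7, a gene on the opposite strand whose protein binds the 7SK RNA, by 11221 bases. LARP7 was listed at 3.66 and 1.78 TPM (chosen after its values were seen), and whether counting used strand is not given in the sources used here. Of 33 microRNA host genes in the table, 6 had a value in both libraries and 18 were at 0 in both. The highest mean among the other 32 was 17.2 TPM, so MIR302CHG stood alone among the hosts so named. Genes that host microRNAs under other symbols were not counted.

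**Figure D1:**
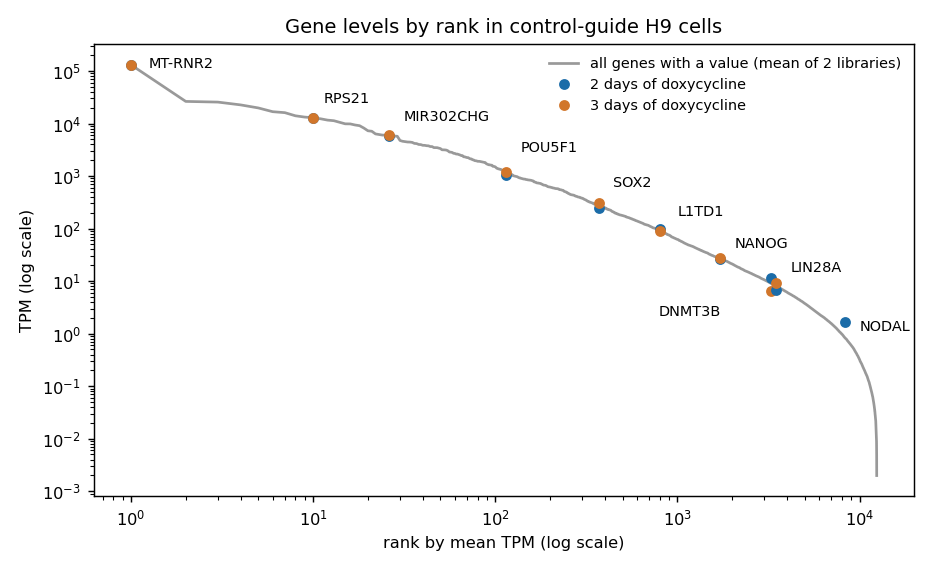
Level of each gene with a value (TPM, log scale) against its rank by mean TPM (log scale), with 10 genes marked by a point per library. The curve falls from MT-RNR2 at rank 1, past MIR302CHG at rank 26 and POU5F1 at rank 115, to DNMT3B at rank 3248 and LIN28A at rank 3467.

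All 5 defining markers of primed stem cells had a value in both libraries, from rank 115 to rank 3467 by TPM. POU5F1, the central pluripotency factor, was at 1068 TPM on day 2 and 1175 TPM on day 3, and ranked 115. SOX2, its DNA-binding partner, was at 246 and 307 TPM on 77 and 115 whole reads. Its exact 95% Poisson intervals were 194 to 308 TPM and 254 to 369 TPM, which overlap. L1TD1, an RNA-binding protein derived from a LINE-1 element, was at 97.1 and 89.2 TPM. DNMT3B, the de novo DNA methyltransferase, was at 11.7 and 6.52 TPM. LIN28A, which blocks maturation of let-7 microRNAs, was at 6.80 and 9.23 TPM. POU5F1, SOX2 and L1TD1 were separated from one another by more than their spread between libraries. DNMT3B and LIN28A were not, because their values overlapped. The order also depends on span: SOX2 has no introns and a listed length of 2512 bases, whereas DNMT3B covers 46975 bases. By TPM multiplied by length DNMT3B ranked 1801 and LIN28A 3609, against 1204 for SOX2 and 269 for L1TD1.

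Of the 24 core pluripotency genes in the table, 23 had a value in both libraries and 1, NODAL, in day 2 alone. Their median was 8.56 TPM, at percentile 79.2 of all listed genes, beside a median of 0.932 TPM over all 16174. The levels are given in 3 tiers, drawn after the values were seen. The upper tier, above 100 TPM on average, held POU5F1, DPPA4, a nuclear protein of early embryos (315 and 266 TPM), SOX2 and the stem cell transcript ESRG (104 and 246 TPM). The middle tier held L1TD1, ZFP42, also called REX1 (62.4 and 50.7 TPM), UTF1 (35.9 and 60.1 TPM), LEFTY1, NANOG (26.4 and 27.6 TPM) and ZSCAN10 (18.9 and 23.3 TPM). NANOG, the homeobox factor that completes the core circuit, was thus listed at a small part of the POU5F1 level, at rank 1710.

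The lower tier of core genes was at or under 10 TPM. SALL4, a zinc finger partner of POU5F1, was at 9.13 and 9.18 TPM, GDF3 at 5.36 and 8.97 TPM, FOXD3 at 6.27 and 5.24 TPM and TRIM71 at 5.03 and 5.47 TPM. TERF1, a telomere protein, was at 5.75 and 2.66 TPM. PRDM14 was at 2.46 and 2.74 TPM, JARID2 at 1.19 and 1.46 TPM and DPPA2 at 0.707 and 0.591 TPM. KLF4 was at 2.86 and 1.22 TPM and LIN28B at 0.503 and 1.20 TPM. A low TPM did not always mean few reads. JARID2, a Polycomb partner on a long span, rested on an estimated 40.6 and 59.4 reads, whereas FOXD3 rested on 2 reads in each library and UTF1 on 6 and 12. At those counts the Poisson interval of FOXD3 ran from 0.759 to 22.7 TPM on day 2. LEFTY1, an inhibitor of Nodal, was the least alike between libraries among the core genes with a value in both, at 56.1 TPM on day 2 and 7.03 TPM on day 3, while LEFTY2 was at 1.74 and 5.77 TPM.

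Genes known for the primed state had values in both libraries for 16 of 17 members, with a median of 11.04 TPM (percentile 81.9). CRABP1, a retinoic acid binding protein, was at 216 and 418 TPM. CD24 and THY1, both surface proteins, were at 190 and 181 TPM and at 54.4 and 84.4 TPM. At the low end, VCAN was at 3.59 and 2.30 TPM. ZIC2 was at 0 in both libraries, on a listed span where a count of 0 allows up to 4.84 and 4.04 TPM (3 reads), so a level under those limits was not detectable. Of the 12 naive-state genes on the list, 5 were in the table, 3 with a value in both libraries. TFCP2L1 was at 5.73 and 3.67 TPM, KLF5 at 2.86 and 1.22 TPM and SUSD2 at 1.05 and 2.64 TPM. DPPA5 had a value in day 3 only (5.53 TPM) and DPPA3 in day 2 only (5.24 TPM). No listed naive gene reached the median of the primed list in either library.

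Lineage markers were few in the table, and those present were listed under 10 TPM in both libraries apart from 2 cytoskeletal genes and an actin. By rank the lists were not all low, beside 50.0 for all genes. Their median TPM percentiles were 87.4 (neuroectoderm), 72.1 (blood, liver and muscle), 63.9 (fibroblast), 49.4 (mesendoderm) and 0 (amnion and trophectoderm), each over few genes. None of the 5 mesendoderm markers in the table had a value in both libraries. CER1 was at 5.34 TPM on day 2 and 0 on day 3, and MIXL1 and CXCR4 were at 0 on day 2 and at 1.98 and 1.77 TPM on day 3. EOMES and FOXA2 were at 0 in both, which allows up to 3.56 and 2.98 TPM for EOMES and 5.41 and 4.52 TPM for FOXA2. Of 3 amnion and trophectoderm markers, KRT7 had a value on day 3 only (1.29 TPM), and ISL1 and GABRP were at 0. The neuroectoderm genes TUBB3, a tubulin (56.0 and 41.5 TPM), and NES, an intermediate filament (23.2 and 17.1 TPM), had values in both, whereas DCX was at 0.0718 and 0.0603 TPM. Fibroblast collagens COL1A2 (7.47 and 7.72 TPM) and COL1A1 (3.21 and 4.21 TPM) rested on an estimated 2.88 and 3.57 reads and 0.379 and 0.595 reads. PDGFRA was at 5.02 TPM on day 2 and 0 on day 3, PDGFRB at 0 and 0.160 TPM, and POSTN at 0. ACTA1, the skeletal muscle actin, was at 147 and 46.6 TPM, HBA1 at 9.53 and 0 TPM, and APOA1 at 0 in both. For APOA1 a count of 0 allows up to 12.9 and 10.8 TPM. The summed level of the 5 fibroblast markers was 0.00164% and 0.00126% of the library, and that of the 5 mesendoderm markers 0.000557% and 0.000391%, beside 0.218% and 0.242% for the core genes. The part of other cells in these values was not tested, since fewer cells of a type and less RNA per cell cannot be told apart in bulk RNA.

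**Figure D2:**
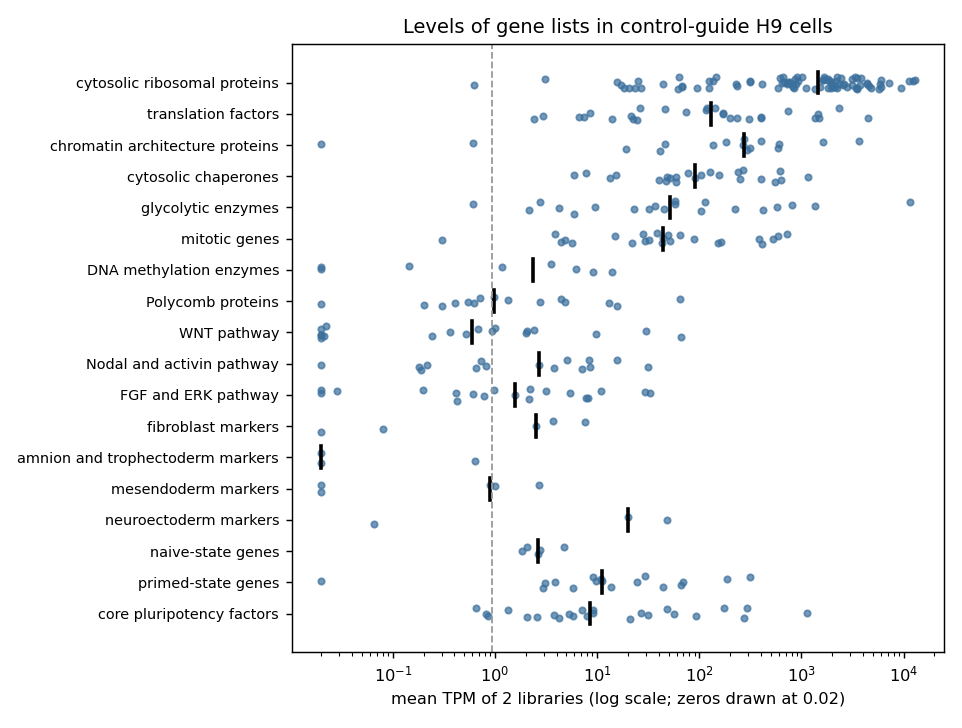
Mean TPM of 2 libraries (log scale) for each gene of 18 lists, with zeros drawn at 0.02, a black bar at each list's median and a dashed line at the median of all listed genes. Ribosomal proteins lie furthest to the right, with a median of 1437 TPM, and the core pluripotency genes spread from DPPA2, at 0.649 TPM, to POU5F1.

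Ligands, receptors and targets of the signals that maintain primed cells are set beside all genes, of which 57.7% had a value in both libraries. Of 19 genes of the FGF and ERK pathway, 15 (78.9%) had a value in both, with a median of 1.56 TPM at percentile 56.8. The highest were the FGF carrier FGFBP3 (44.3 and 20.8 TPM), the ERK phosphatase DUSP6 (34.5 and 23.9 TPM) and the ligand FGF2 (14.3 and 7.34 TPM). FGFR3 and SPRED2 were at 0 in both. The Nodal and activin pathway had 11 of 15 members (73.3%) in both libraries (median 2.67 TPM, percentile 64.7), led by LEFTY1, the activin subunit INHBE (23.6 and 7.41 TPM) and the SMAD co-repressor SKIL (11.5 and 5.59 TPM). SMAD7, an inhibitory SMAD, was at 0. The WNT pathway had 10 of 18 (55.6%) in both (median 0.599 TPM, percentile 44.4), led by the secreted antagonist SFRP2 (67.2 and 64.1 TPM), the receptor FZD7 (31.5 and 29.3 TPM) and CTNNB1, beta-catenin (9.40 and 10.1 TPM). LEF1, APC, WLS and FZD5 were at 0 in both, which for FZD5 allows up to 3.30 and 2.76 TPM. Of the surface and adhesion proteins, 13 of 15 had a value in both, and the highest were BST2 (179 and 210 TPM), CD24 and CLDN7, a tight junction protein (155 and 124 TPM).

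The 2 libraries listed values for 10603 and 11134 genes. Of 16174 genes, 9325 (57.7%) had a value in both, 3087 in 1 and 3762 (23.3%) in neither. A mean of at least 1 TPM was reached by 7939 genes, at least 10 TPM by 3101, at least 100 TPM by 758 and at least 1000 TPM by 127. Signal was concentrated: 35 genes made up 50% of all TPM in each library. By the transcript-span estimate that took 141 genes on day 2 and 131 on day 3. The 10 highest genes held 31.4% and 31.0% of TPM, 22.7% and 23.6% of TPM multiplied by length, and 15.3% and 15.9% of the estimated reads.

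Protein-coding genes held 70.7% and 70.0% of TPM on day 2 and day 3, and 86.0% and 84.8% of TPM multiplied by length. The 2 mitochondrial ribosomal RNAs held 16.5% and 16.4% of TPM but 3.01% and 3.02% of TPM multiplied by length. Processed pseudogenes, intronless copies of messages, held 7.29% and 7.76% of TPM but 0.394% and 0.416% of TPM multiplied by length. Long non-coding RNAs went the other way, from 2.29% and 2.47% of TPM to 10.5% and 11.6%. On the transcript span they held 4.398% and 6.00%. The gap between TPM and TPM multiplied by length was thus wider than the gap between libraries for each of these classes. Detection differed too: 63.1% of 13693 protein-coding genes had a value in both libraries, against 27.7% of 1577 long non-coding RNAs and 28.5% of 664 processed pseudogenes.

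**Figure D3:**
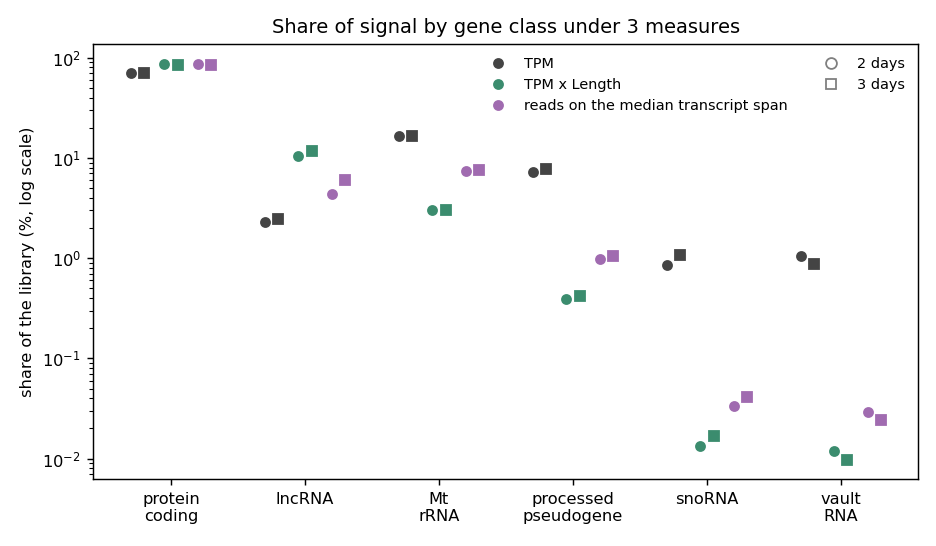
Share of each library (%, log scale) held by 6 gene classes under 3 measures, with a circle for day 2 and a square for day 3. Pseudogenes and small RNAs drop by more than a factor of 10 from TPM to TPM x Length, and long non-coding RNAs go from 2.38% to 11.1% on average.

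Span ran through the whole ranking. Split into 10 equal groups by mean TPM, genes with a value had a median length of 134709 bases in the lowest group and 6019 bases in the highest. Across the 12412 genes with a value, the Spearman correlation of TPM with length was -0.61, and that of the estimated reads with length was -0.09. These are descriptions across genes, which are not independent replicates, and length enters both sides of the first.

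The 15 highest genes by TPM were mostly short. The mitochondrial ribosomal RNAs MT-RNR2 (129935 and 132610 TPM) and MT-RNR1 (28056 and 24597 TPM) came first, followed by MT-CO2, a cytochrome c oxidase subunit, and TMSB10, a thymosin that binds actin monomers (24968 and 20260 TPM). RPL36AP37, RPS23P8 and RPL21P16, listed as processed pseudogenes, were among them. So were the histone H4C3, the cytokine MIF, the ferritin light chain FTL, the ribosomal proteins RPS21, RPS29 and RPS20, the glycolytic enzyme GAPDH and MT-CO3. By TPM multiplied by length the 15 highest were mostly long. After MIR302CHG came RPS29, RPL37A, MT-RNR2, the glycolytic enzyme PGK1, the DNA repair subunit XRCC5 and ACTB. They were followed by LDHB, RPL30, RPS9, RPS20, SNHG14, SERF2, POLR1D and the elongation factor EEF1A1. Only MT-RNR2, RPS29 and RPS20 were in both groups of 15. Of the 100 highest by each measure, 55 were shared. Ribosomal protein genes made up 43 of the 100 highest by TPM and 37 of the 100 by TPM multiplied by length.

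Translation dominated the nuclear messages. Of 86 genes with cytosolic ribosomal protein symbols, 85 had a value in both libraries, with a median of 1437 TPM at percentile 99.4. Together they held 19.4% and 19.7% of TPM, and 20.1% and 20.5% of the estimated reads. By TPM multiplied by length their share was higher, at 22.7% and 22.8%. RPS21 (12865 and 12881 TPM), RPS29 (12283 and 12311 TPM) and RPS20 (10966 and 11638 TPM) led. RPL3L, a muscle paralog, was the lowest, at 0 and 1.25 TPM. All 28 translation factors had a value in both (median 130 TPM), led by TPT1 (4718 and 4314 TPM), the ribosome scaffold RACK1 (2273 and 2362 TPM) and EEF1A1 (1454 and 1538 TPM). The cap-binding protein EIF4E, which starts cap-dependent initiation, was the lowest of that list at 2.91 and 1.89 TPM. Of 21 nucleolar ribosome biogenesis genes, 19 had a value in both (median 31.4 TPM). NOP10 (1617 and 1167 TPM), NHP2 and NPM1 were the highest.

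Many genes of this group carry a pyrimidine tract at the transcription start, the 5′ TOP motif, through which growth signals are known to control their translation. RefSeq promoters (GRCh38.p14) were searched on the gene's own strand for a C at the start base followed by at least 4 bases that are each C or T. Genes of chromosomes without a start used here were left out. The motif was found in 48 of 68 matched ribosomal protein genes (70.6%) and in 9 of 21 matched translation factors (42.9%). It was found in 7.43% of 11147 matched protein-coding genes and at 4.08% of all 34961 starts. By level, it was found in 6.14% of matched protein-coding genes up to percentile 50 of all listed genes by TPM, 11.1% from percentile 90 to 99 and 45.5% in the top percentile. Without ribosomal proteins and translation factors, the top percentile held it in 13.2% of 53 matched genes. A gene with several listed starts counted if 1 start matched. A match is a description of letters, not of a used start.

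Windows of 30 bases show the tract in several high translation genes. They show none at the RefSeq starts used for GAPDH and for the ribosomal protein gene RPS29. Each window runs from 10 bases before the RefSeq start to 20 from it, 5′ to 3′ on the gene's strand. The tract from the start base is in capitals.
RPS21, chr20:62387093-62387122, plus strand: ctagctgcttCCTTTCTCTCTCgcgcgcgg
RPS6, chr9:19380217-19380246, minus strand: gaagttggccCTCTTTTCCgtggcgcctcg
RPLP2, chr11:809957-809986, plus strand: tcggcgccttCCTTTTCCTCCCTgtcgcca
TPT1, chr13:45341164-45341193, minus strand: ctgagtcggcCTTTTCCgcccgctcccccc
EEF1A1, chr6:73521013-73521042, minus strand: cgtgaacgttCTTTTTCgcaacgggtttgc
GAPDH, chr12:6535254-6535283, plus strand: gtgcatccctgtccggatgctgcgcctgcg
RPS29, chr14:49598691-49598720, minus strand: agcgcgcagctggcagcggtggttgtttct
The tract was 12 bases long in RPS21 and 7 in TPT1. No tract begins at the RefSeq start used here for GAPDH or for RPS29, although RPS29 ranked 11 by TPM, right after RPS21. The GAPDH start lies inside the gene's listed span, which begins at 6534512. RPS29 is listed over 28181 bases, against a median transcript span of 2789 bases. Other starts of GAPDH and RPS29 were not searched, so the windows do not show that either gene lacks the tract. RPS6 and RPLP2 were chosen as the next ribosomal protein genes by TPM with a sequence in the table.

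Intronless copies of ribosomal protein genes complicate that family. Of 292 ribosomal protein pseudogenes in the table, 114 had a value in both libraries, and they held 7.10% and 7.67% of TPM but 0.934% and 1.01% of the estimated reads. For RPL36A and RPL21, 1 copy held more reads than the upper bound of the parent in both libraries. RPL36AP37 (chr11:16974693-16975013, minus strand) held 776 and 964 reads, whereas its parent RPL36A held at most 2.22 and 2.25. RPL21P16 held 619 and 678 reads against at most 81.5 and 69.6 for RPL21. Reads of such near-identical genes could be split between parent and copy in counting, so the level of each parent and copy is uncertain. These genes were chosen after their values were seen.

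The mitochondrial chromosome held 30 listed genes. Its 13 messages all had a value in both libraries and ranged from MT-ND6 (536 and 537 TPM) to MT-CO2 (24345 and 26786 TPM). Subunits of one complex differed widely. In complex I, the NADH dehydrogenase, MT-ND4 was at 9362 and 10279 TPM, far above MT-ND6. These genes have no introns, and their listed spans equal the spans of their annotated transcripts. MT-ND6 is known to lack a poly(A) tail, and the cDNA here was primed with oligo-dT. Whether this bears on its level here was not tested. Nuclear respiratory chain subunits had a value in both libraries for 79 of 84 genes, at a median of 130 TPM (percentile 96.1), led by ATP5ME (3973 and 4009 TPM), COX8A and UQCRQ. COX4I2 and the readthrough NDUFC2-KCTD14 were at 0. Mitochondrial ribosomal proteins were lower, at a median of 33.3 TPM over 77 genes, with MRPS34 (1200 and 1037 TPM) highest.

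Glycolytic genes all had a value in both libraries, 20 of 20, at a median of 51.4 TPM. GAPDH was at 10578 and 12633 TPM, ALDOA at 1248 and 1476 TPM, and LDHB at 873 and 748 TPM. The hexokinase HK2, which traps glucose in the cell, was lowest at 0.542 and 0.680 TPM. Of 23 genes of cholesterol synthesis and its regulation, 20 had a value in both, led by FDPS (217 and 78.3 TPM), EBP (111 and 56.5 TPM) and ACAT2 (137 and 25.01 TPM).

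Genes of a dividing cell were prominent. All 24 mitotic genes had a value in both libraries (median 44.1 TPM, percentile 92.3). CKS2 and CKS1B, small partners of cyclin-dependent kinases, were at 691 and 758 TPM and at 539 and 515 TPM, and CCNB1, cyclin B1, at 622 and 569 TPM. The kinesin KIF11 was the lowest, at 0.387 and 0.216 TPM. Of 26 replication and licensing genes, 25 had a value in both (median 21.0 TPM), led by the sliding clamp PCNA (151 and 117 TPM), FEN1 and MCM4. Replication-dependent histones had values in both for 46 of 58 genes, with a median of 74.6 TPM. These genes are short, with a median length of 766 bases, and their median percentile was 94.4 by TPM, 71.6 by TPM multiplied by length and 67.3 by estimated reads. H4C3 stood far above the rest at 18426 and 15140 TPM on 929 and 913 reads, followed by H2AC17 (4091 and 4261 TPM) and H1-3 (1346 and 1714 TPM). H4C16, H4C14, H4C6, H4C2 and H3C3 were at 0. On short spans a count of 0 allows up to 60.1 and 50.2 TPM for H4C6 and 49.6 and 41.5 TPM for H3C3. Most messages of replication-dependent histones are known to end in a stem loop without a poly(A) tail, and the cDNA here was primed with oligo-dT. Whether this bears on their levels here was not tested.

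Chromatin genes divided by role. Architectural proteins were high, at a median of 273 TPM (percentile 97.7) with 15 of 16 in both libraries, led by the histone variant H2AZ1 (4122 and 3156 TPM), PTMA (1623 and 1655 TPM) and HMGB2 (511 and 703 TPM). HMGA2 was at 0, which on its long span allows 0.170 and 0.142 TPM. Polycomb proteins, which mark silent developmental genes, had a median of 0.988 TPM (percentile 50.7), near that of all genes by TPM. With a median length of 44775 bases, their median percentile was 63.3 by TPM multiplied by length and 64.3 by estimated reads. RBBP7 (55.1 and 73.5 TPM), RBBP4 (18.3 and 12.9 TPM) and CBX2 (5.91 and 20.01 TPM) led. RING1 was at 0, which on its short span allows up to 5.71 and 4.77 TPM, above the median of the list. Among 8 DNA methylation enzymes, DNMT3A (15.8 and 12.1 TPM), DNMT3B and DNMT1 (5.10 and 7.28 TPM) were highest on average. DNMT3B was above DNMT1 on day 2 and below it on day 3. TET2 and TET3 were at 0.

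Structure and protein folding were strongly represented. All 28 cytoskeletal genes had a value in both libraries (median 180 TPM), led by TMSB10, TMSB4X (7699 and 8664 TPM) and the actin-binding profilin PFN1 (4305 and 3211 TPM). Lamin A, LMNA, was lowest at 1.73 and 2.09 TPM. Among 8 keratins, KRT18 (1006 and 770 TPM), KRT19 (238 and 229 TPM) and KRT8 (115 and 137 TPM), which form simple epithelial filaments, were far above the others. All 23 cytosolic chaperones had a value in both (median 91.5 TPM), led by HSP90AB1 (1177 and 1120 TPM), HSPA8 and HSPB1. Proteasome subunits had 44 of 45 in both, led by PSMB6 (1019 and 988 TPM). PSMB9, an immunoproteasome subunit, was lowest at 0 and 1.19 TPM. Of 16 p53 pathway genes, 12 had a value in both (median 3.41 TPM), with BAX, AEN and TP53I3 highest.

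Long non-coding genes other than MIR302CHG were low as a class and high as snoRNA hosts. The 20 listed snoRNA host genes had 19 with a value in both libraries, at a median of 127 TPM, beside a median of 0.167 TPM over all 1577 long non-coding genes. SNHG19 (1257 and 775 TPM), SNHG8 (1110 and 847 TPM) and GAS5 (599 and 738 TPM) led. SNHG26, the target of the guides not analysed here, was the lowest host at 2.98 and 4.03 TPM. After MIR302CHG the highest long non-coding genes were LINC02700 (909 and 2555 TPM) and DANCR (1664 and 1368 TPM). DANCR was above LINC02700 on day 2 and below it on day 3. Among 319 genes with a LINC symbol, 74 had a value in both. LINC-ROR, MEG3 and LINC01108 were at 0. Of 576 genes with an antisense name, 155 had a value in both, and FOXD3-AS1 (947 and 994 TPM) stood first, although its neighbour FOXD3 rested on 2 reads in each library. Reads of a gene and of its antisense partner may not be told apart here.

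Among imprinted genes, 8 of 16 had a value in both libraries. SNRPN (152 and 162 TPM) and, on the same chromosome 15, SNHG14 (179 and 176 TPM) differed little between libraries. MEST was at 31.6 and 25.6 TPM and GNAS at 9.56 and 21.6 TPM. NNAT, DLK1, PHLDA2, PEG3 and MEG3 were at 0 in both. On short spans a count of 0 allows up to 21.0 and 17.6 TPM for PHLDA2 and 9.70 and 8.11 TPM for NNAT. Of 4 HOX genes in the table none had a value in both, and of 4 olfactory receptors none did.

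Small RNA genes reached high TPM on few reads because their spans are short. The vault RNA VTRNA1-3 ranked 18 by TPM, at 10018 and 8150 TPM on 111 and 108 reads, with Poisson intervals of 8242 to 12065 TPM and 6685 to 9840 TPM. VTRNA2-1 was at 126 and 157 TPM on 2 and 3 reads, and VTRNA1-1 was at 0 in both. For VTRNA1-1 a count of 0 allows up to 243 and 204 TPM (3 reads), so its level cannot be told apart from that of VTRNA2-1. All 3 genes were picked after their values were seen. Their sequences are shown, 5′ to 3′, because VTRNA1-3 stood far above its short relatives. VTRNA1-1 and VTRNA1-3 belong to the vault particle, a large ribonucleoprotein of the cytoplasm, whereas VTRNA2-1 is known to lie outside it despite its name. Capitals mark the first 3 bases, which all share.
VTRNA1-1, chr5:140711275-140711373, plus strand: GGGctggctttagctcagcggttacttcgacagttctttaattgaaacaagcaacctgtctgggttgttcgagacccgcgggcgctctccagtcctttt
VTRNA1-3, chr5:140726158-140726246, plus strand: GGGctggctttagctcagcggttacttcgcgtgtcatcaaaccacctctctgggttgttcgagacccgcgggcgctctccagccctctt
VTRNA2-1, chr5:136080470-136080597, minus strand: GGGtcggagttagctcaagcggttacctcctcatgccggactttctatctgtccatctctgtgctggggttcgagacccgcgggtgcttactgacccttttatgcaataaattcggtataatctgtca
Of 64 snoRNA genes, 14 had a value in both libraries. SNORA31B, the highest, was at 1798 and 2255 TPM on 30 and 45 reads.

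By TPM multiplied by length, an upper bound for genes with several transcripts, a single gene carried much of the signal on some chromosomes. Chromosome 4 held 3.67% of the listed genes and 6.43% and 6.50% of TPM multiplied by length. Without MIR302CHG its mean share was 1.74%. Chromosome 14 held 3.25% of the genes and 6.91% and 6.74% of the signal, but 2.28% without RPS29. Chromosome X held 3.41% on day 2 and 4.70% on day 3, and its highest gene, PGK1, was at 370 and 789 TPM. The mitochondrial chromosome held 0.185% of the genes and 3.98% and 4.02% of the signal. Chromosome 18 held the smallest share for its genes, 0.470% and 0.485% of the signal for 1.49% of the genes. Its highest gene, RPL17, took 0.0345% of the signal. Per gene, the transcript-span estimate put chromosomes 11 and 17 highest among the nuclear chromosomes and 18 lowest, at 1.32, 1.23 and 0.41 times their share of genes. By that estimate chromosomes 4 and 14 were not far above their share of genes, at 0.75 and 1.02 times it. MIR302CHG then held 0.648% of the estimated reads and RPS29 1.12%, as means of the libraries.

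**Figure D4:**
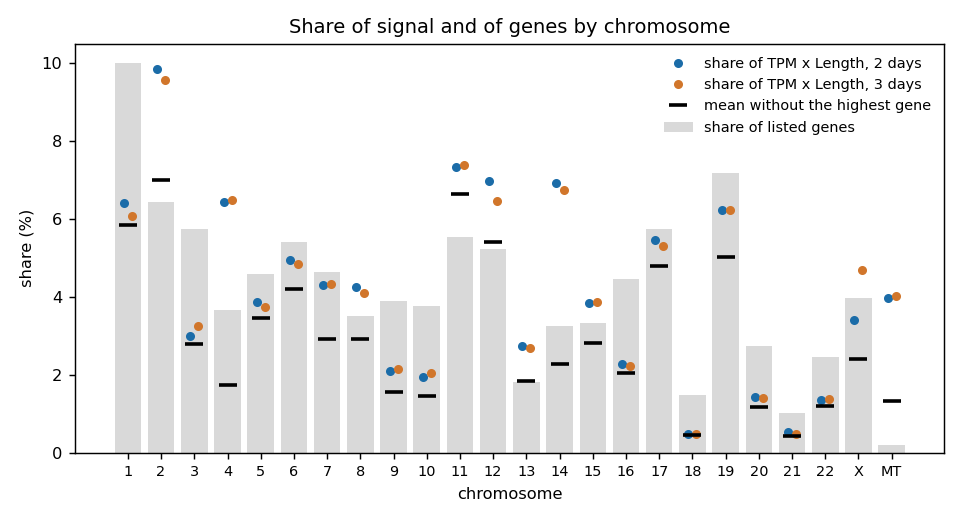
Share (%) of listed genes (grey bars) and of TPM x Length in each library (points) by chromosome, with a black bar for the mean share without the chromosome's highest gene. Chromosomes 4 and 14 lie above their share of genes, and below it without MIR302CHG and RPS29, and chromosome 18 stays below 0.5%.

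The 2 libraries were most alike where reads were many. On log2(TPM + 1), Pearson's r across the 7939 genes at 1 TPM or more on average was 0.81, and across the 758 genes with at least 100 TPM it was 0.90. These values describe 2 libraries of the same guide that share a cell line, a protocol and a table. Among genes with an estimated 300 reads or more, 96.0% of those with a value in both libraries were within 2-fold of each other. From 1 to 3 estimated reads that share was 55.01%. The core pluripotency genes other than POU5F1, DPPA4, ESRG and L1TD1 had a mean under 100 estimated reads, where levels of single genes are less certain.

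**Figure D5:**
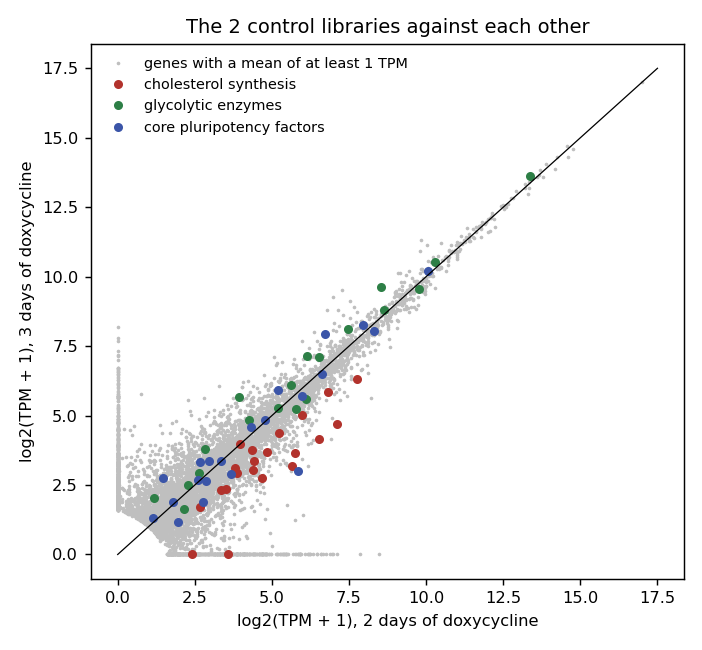
Level on day 3 against day 2, both as log2(TPM + 1), for genes at 1 TPM or more on average, with 3 lists in colour and a line of equality. Core pluripotency genes lie on both sides of the line, the plotted genes of cholesterol synthesis lie on or below it, and glycolytic genes lie mostly above it.

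Several lists lay mostly to one side between the libraries. Of 16 cholesterol synthesis genes with at least 10 estimated reads and a value in both, all 16 were lower on day 3, by a median of -1.21 on the log2 scale. ACAT2, MVD and HMGCS1, which act early in the pathway, were at 137 and 25.01, 92.1 and 16.8, and 49.4 and 8.17 TPM (MVD and HMGCS1 were chosen after their values were seen). Of 12 genes of amino acid and unfolded protein stress, 11 were lower on day 3 (median -0.47), as were 20 of 22 SNRP core protein genes (median -0.17) and 4 of 4 genes of the FGF and ERK pathway (median -0.68). Glycolytic genes went the other way, with 14 of 17 higher on day 3 and a median of 0.48. Over all 3572 genes with as many reads, 55.5% were lower on day 3 and the median was -0.07. Core pluripotency genes had 10 of 15 higher on day 3 and a median of 0.12. With 1 library a day, day and library cannot be told apart.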

How the data were processed

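RNA of 2 control libraries was analysed. Per the labels' protocols, nanopore sequencing was done on PCR-amplified cDNA. The submitters' processing notes name minimap2 2.24-r1122 and GRCh38. The counting tool, annotation release and filters are not given in the sources used here. The authors deposited 1 table of TPM for 16174 genes, and its values sum to 958319 (day 2) and 956316 (day 3). The reads behind 1 TPM were recovered from mitochondrial genes, whose TPM multiplied by length are whole multiples of 1 unit. With it, 2571 of the 12412 expressed genes (20.7%) gave whole reads in both libraries within 0.0001 read. The recovery was tested on simulated data in which every gene had whole reads on its listed span. The test therefore does not cover genes with several transcripts. Median transcript spans came from GENCODE 29 (14911 genes matched by name and chromosome), else from RefSeq gene spans (1216 genes), else the listed length (47 genes). Python 3.11.15 with pandas 2.3.3, numpy 2.4.6 and scipy 1.17.1 was used.

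The subject, the 31 gene lists and the 26 families were chosen with earlier results of these data known. Named genes are the 15 highest by TPM and by TPM multiplied by length, the 3 highest and lowest of each list, the highest of each biotype and chromosome, all markers and small sets at 0, other genes being marked as chosen after their values were seen. No test was run on 2 libraries. Some values of the retrocopy comparison are not reported here.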

Additional observations from a re-analysis of the deposited data

How the results depend on the processing

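Most shares moved with the measure more than with the library. An exception was the protein-coding share by transcript span, which differed from that by TPM multiplied by length by less than the SD between libraries. On TPM, TPM multiplied by length without overlapping genes, and reads on the median transcript span (the last chosen after seeing the data), the means were, for protein-coding genes (85.4% of TPM multiplied by length), 70.4%, 89.4% and 86.1%; for long non-coding RNAs (11.1%), 2.38%, 3.71% and 5.20%; for mitochondrial ribosomal RNAs (3.02%), 16.5%, 6.27% and 7.49%. For processed pseudogenes (0.405%) they were 7.53%, 0.486% and 1.01%, for the mitochondrial chromosome (4.00%) 25.8%, 7.54% and 9.94%, for chromosome 4 (6.46%) 2.65%, 1.83% and 2.77%, and for chromosome 14 (6.83%) 2.37%, 1.70% and 3.32%. Genes whose span overlaps another numbered 6376 (39.4%), MIR302CHG among them. Without the mitochondrial chromosome, protein-coding genes held 88.0% and processed pseudogenes 0.422%. The 10 highest genes held 23.1%, against 31.2% of TPM, 22.4% without the mitochondrial chromosome and 15.6% of estimated reads. Genes with a value in both (9325) numbered 5809 with at least 5 reads on the listed span and 4305 with at least 5 on the transcript span. The median percentile of core pluripotency genes (79.2) was 59.2 among genes at 1 TPM or more, 81.3 by TPM multiplied by length and 86.9 by estimated reads. That of ribosomal proteins (99.4) was 98.8, 99.2 and 99.4, and that of ribosomal protein pseudogenes (81.6) was 73.8, 26.8 and 35.1.

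With either library alone, the shares ran from 84.8% to 86.0% (protein-coding), 10.5% to 11.6% (long non-coding), 3.01% to 3.02% (mitochondrial ribosomal RNA), 0.394% to 0.416% (processed pseudogenes), 3.98% to 4.02% (mitochondrial chromosome), 6.43% to 6.50% (chromosome 4), 6.74% to 6.91% (chromosome 14) and 22.7% to 23.6% (10 highest). The median percentiles ran from 78.3 to 78.8 (core), 99.36 to 99.39 (ribosomal proteins) and 81.5 to 84.6 (their pseudogenes), and genes with a value from 10603 to 11134. Over 57 lists, ranking by TPM multiplied by length moved the median percentile by more than 20 points in 12. The cause was not tested beyond the construction of each measure. No paired analysis was possible because no test was run and the control guides have 1 library a day.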
